A study of Mus musculus with 4 samples.

Results

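The BAF (SWI/SNF) chromatin-remodelling complex is assembled from interchangeable parts, and the 10 genes described here encode its alternative ATPases and the subunits that are exchanged when progenitors become neurons. They were taken by name from a list, as Smarca4 and Smarca2 (the ATPases), Actl6a and Actl6b, Phf10, Dpf2, Dpf1 and Dpf3, and Ss18 and Ss18l1. The list was chosen with earlier results of these data known. All 10 were found among the 52636 genes of the deposited count tables, and all 10 were among the 16557 genes that held enough reads to be tested. RNA was sequenced from mouse cells purified by fluorescence sorting as otic cells from otocysts, the epithelial vesicles that form the inner ear. There were 2 libraries with the genotype Control and 2 with the genotype Brg1cKO, a conditional knockout of Brg1, the ATPase that Smarca4 encodes. Each library was made from 3000 cells. The embryonic age, the strain, the Cre driver, the deleted exons and the marker used for the sort are not given in the labels or headers used. The labels do not tie replicates to separate embryos or sorts, so every p-value below reflects the spread among 4 libraries, part of which may be technical. By edgeR, the spread used for a gene is drawn in part from other genes and is shared by both groups.

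The complex uses the energy of ATP to move or evict nucleosomes, and each complex holds a single ATPase, either BRG1 (Smarca4) or BRM (Smarca2). In dividing neural progenitors it carries BAF53A (Actl6a), BAF45A or BAF45D (Phf10, Dpf2) and SS18. In postmitotic neurons these give way to BAF53B (Actl6b), BAF45B or BAF45C (Dpf1, Dpf3) and CREST (Ss18l1). Neurons of the inner ear arise from the otocyst wall, so a sort of otic cells can hold both progenitors and young neurons.

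Gene reads numbered 15357265 and 19132360 in control replicates 1 and 2, and 29361382 and 25875555 in Brg1cKO replicates 1 and 2. Replicates lay further apart in the controls: across tested genes, the SD of the log2 ratio of replicate 1 to 2 was 2.30 there, against 1.27 in Brg1cKO-labelled libraries. The share of records left unaligned was 20.9% and 19.1% for control, 9.54% and 9.41% for Brg1cKO, while 17266 and 17086 genes had reads against 20859 and 20902. The part of these differences in the results below was not tested. All 16 otic epithelial markers examined had reads in every library. Their summed level was 2110 to 2277 CPM (counts per 1000000 reads, with library totals scaled by TMM) in the controls and 425 to 444 CPM in the others. In bulk RNA, fewer cells of a type and less RNA per cell cannot be told apart.

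Smarca4, the targeted gene, was not lower in the Brg1cKO-labelled libraries and did not pass the test. Its scaled level was 816 and 815 CPM in control replicates 1 and 2 and 891 and 848 CPM in Brg1cKO replicates 1 and 2. Both values labelled Brg1cKO lay above both control values, by little. The log2 fold change of Brg1cKO over control was 0.09 ± 0.0995 (SE, n = 2 libraries per group). Its 95% interval ran from -0.14 to 0.33 (adjusted p = 0.817, edgeR). On the linear scale that interval runs from 0.907-fold to 1.25-fold. The log2 fold change was above 0 under all 14 alternative settings (0.05 to 0.14), other scalings included. The gene (ENSMUSG00000032187) spans 21616169 to 21704230 on chromosome 9 in mm10, and its count takes in reads from every exon. Reads of a transcript that lacks the deleted exons would still be counted, so this value checks the labels little.

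Smarca2, the alternative ATPase, did not pass the test in either direction. It measured 96.3 and 78.2 CPM in control, 72.3 and 73.1 CPM in Brg1cKO-labelled libraries. The groups did not overlap, but the gap between the controls was larger than the gap from the lower control to the others. Its log2 fold change was -0.26 ± 0.294 (SE, 95% interval -0.95 to 0.43, adjusted p = 0.83, edgeR). On the linear scale that interval reaches 1.35-fold at its upper end. Smarca2 (ENSMUSG00000024921) lies on chromosome 19 from 26605050 to 26778322.

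**Figure D1:**
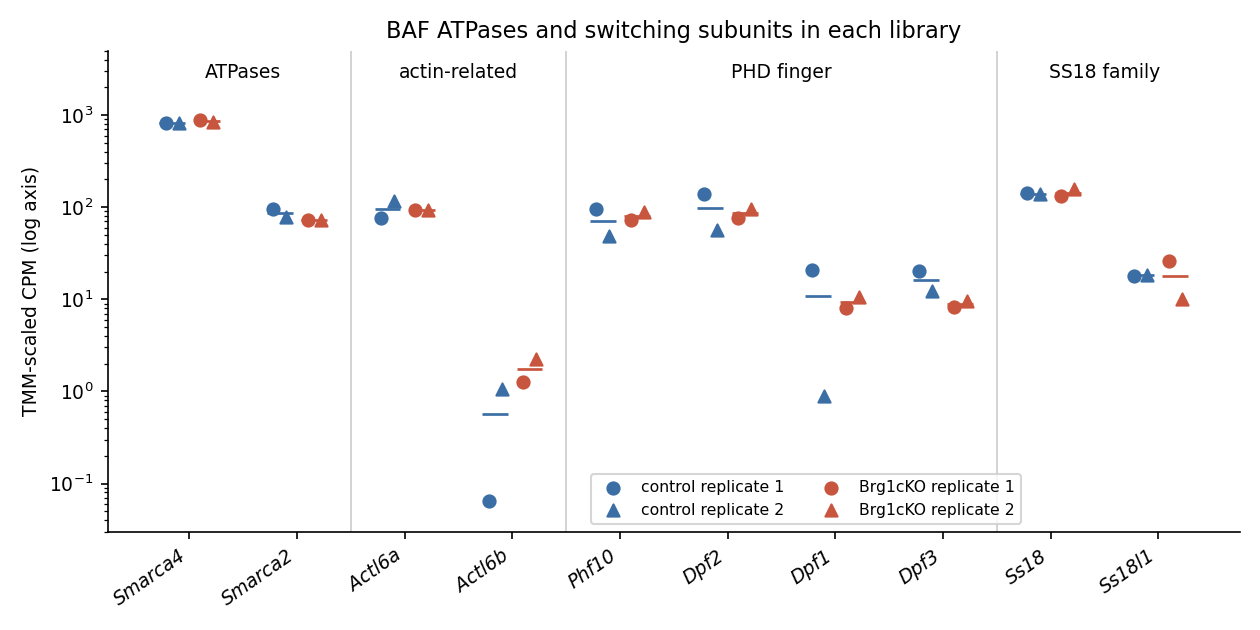
Scaled CPM of the 10 genes on a log axis, 1 point per library (circle, replicate 1; triangle, replicate 2) with a bar at each group's mean, blue for control and red for Brg1cKO. Smarca4 sits at 815 to 891 CPM in every library, while Actl6b and Dpf1 show the widest gaps between the controls.

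Actl6a, which encodes the actin-related subunit of the progenitor complex, measured 76.1 and 116 CPM in control, 93.0 and 93.1 CPM in Brg1cKO-labelled libraries. Both of the latter lay between the controls. Its log2 fold change of -0.05 ± 0.303 (SE) came with 95% limits of -0.76 and 0.67 (adjusted p = 0.979, edgeR). Actl6a (ENSMUSG00000027671, chromosome 3, 32706298 to 32726973) shares 452 exonic bases, 11.6% of its exons, with Mrpl47 on the opposite strand, which makes its count uncertain if strand was ignored in counting.

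Actl6b, the neuronal counterpart, was close to the limit of detection. Its reads numbered 1 and 20 in the controls, 37 and 58 in Brg1cKO-labelled libraries. These are 0.065, 1.06, 1.26 and 2.24 CPM in the same order, so the groups did not overlap. Counting error alone gave exact binomial 95% intervals, per 1000000 gene reads, of 0.00165 to 0.363 and 0.639 to 1.61 for the controls. For the Brg1cKO-labelled libraries they were 0.887 to 1.74 and 1.70 to 2.90. The interval of control replicate 2 overlapped that of Brg1cKO replicate 1. That of control replicate 1 overlapped none of the others, so counting error alone does not cover the gap between the controls. The reads carry no molecular identifiers, so these intervals cover counting error only. The fitted log2 fold change was 1.62 ± 2.13 (SE) with 95% limits of -3.38 and 6.62 (adjusted p = 0.861, edgeR), too wide to tell a rise from a fall. With a library left out in turn it ran from 0.72 to 4.63, the latter without control replicate 2. Actl6b (ENSMUSG00000029712) lies on chromosome 5 from 137553517 to 137569582.

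**Figure D2:**
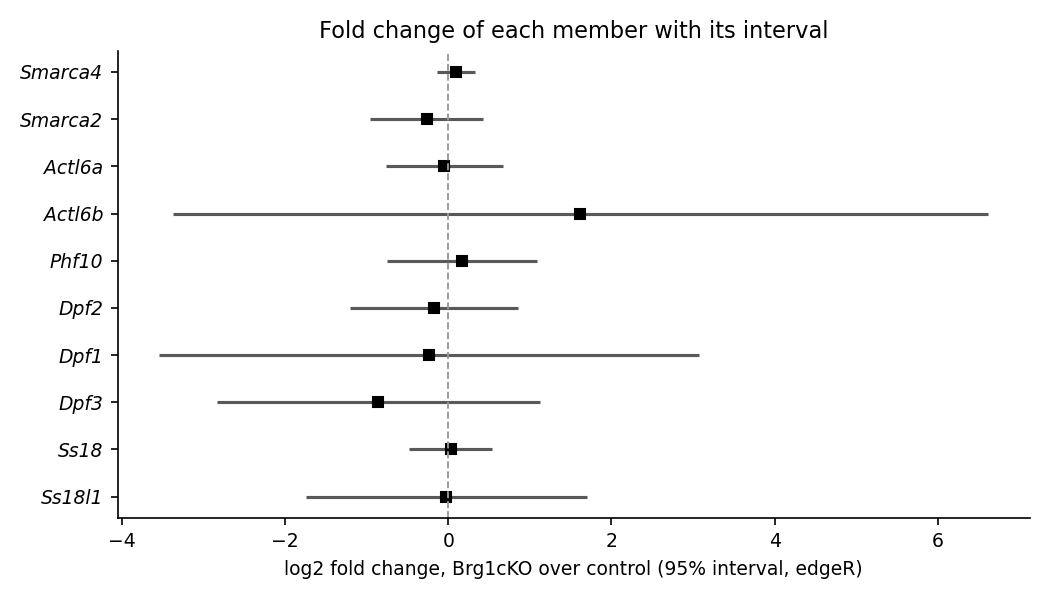
Log2 fold change of Brg1cKO over control for each gene (square) with its 95% interval (line) from edgeR, 2 libraries per group. Every interval crosses 0; the narrowest is that of Smarca4 (-0.14 to 0.33) and the widest that of Actl6b (-3.38 to 6.62).

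The exchange of these actin-related subunits is known to involve miR-9*, the 3p strand of miR-9, and miR-124, which act on the 3′ UTR of Actl6a in neurons. The miRNA and its seed match are shown because this pairing is the known link between the regulator and the gene. The capitals mark the seed of the miRNA, bases 2 to 8, and its complement AGCTTTA in the transcript.
mmu-miR-9-3p: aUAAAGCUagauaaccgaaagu
Actl6a 3′ UTR site: acctcaacgtctgtAGCTTTAgtaca
The site lies at chr3:32726626-32726651 on the plus strand (GRCm38, the build also called mm10), in a GENCODE M21 transcript, and the miRNA sequence is that of RefSeq for GRCm38.p6. It was the sole match in the 371 bases of the 3′ UTR of Actl6a, searched on the sense strand, and 2.4% of 1799 mouse 3′ UTRs within 20% of that length held a match. Of the other 9 members only Smarca2 held the match, once in 952 bases, against 7.3% of 3′ UTRs of like length. The search took, for each gene, only the coding transcript with the longest 3′ UTR. Among the members these ran from 90 bases (Phf10) to 3087 (Ss18), and other transcripts were not searched. A match of letters is a description and was not tested for function.

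The 250 bases before the RefSeq start of each of these genes are shown as a description of 2 genes that differ widely in level. The part of these sequences in the levels was not tested. Capitals mark CG dinucleotides.
Actl6a upstream: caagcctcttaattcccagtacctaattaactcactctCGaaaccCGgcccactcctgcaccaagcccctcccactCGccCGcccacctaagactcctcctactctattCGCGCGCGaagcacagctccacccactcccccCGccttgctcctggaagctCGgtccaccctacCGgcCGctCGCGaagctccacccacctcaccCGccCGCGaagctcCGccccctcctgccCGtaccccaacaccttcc
Actl6b upstream: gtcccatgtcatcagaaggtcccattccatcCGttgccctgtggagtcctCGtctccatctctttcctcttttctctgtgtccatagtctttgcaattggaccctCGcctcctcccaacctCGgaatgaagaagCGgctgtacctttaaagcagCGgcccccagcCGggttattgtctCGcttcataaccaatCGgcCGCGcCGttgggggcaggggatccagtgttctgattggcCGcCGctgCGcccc
These windows are chr3:32708296-32708545 and chr5:137553296-137553545, both on the plus strand (GRCm38.p6), with 19 and 15 CG. In GENCODE M21 the Actl6a gene starts earlier, at 32706298, so its window lies inside the gene there. The Actl6b gene starts at 137553517, within its window. In the full window of 300 bases, which adds 50 bases after the start, Actl6a had 21 CG and Actl6b 23. The 9 members found in the RefSeq promoter table all had more CG than the median of 7 over 32851 promoters, from 17 in Dpf3 to 62 in Phf10. Smarca4, Actl6a, Dpf1 and Actl6b, which ranked 1, 2, 9 and 10 in level per length, had 33, 21, 39 and 23 CG.

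The PHD-finger subunits bind histone tails, and neither progenitor form passed the test. Phf10 measured 94.5 and 48.4 CPM in control, 73.1 and 87.7 CPM in Brg1cKO-labelled libraries, which lay between the controls. Dpf2 measured 138 and 56.0 CPM in control, 77.1 and 95.5 CPM in Brg1cKO-labelled libraries, again between the controls. Both genes were thus higher in control replicate 1 than in control replicate 2, by 1.95-fold for Phf10 and 2.47-fold for Dpf2. The log2 fold change was 0.17 ± 0.391 (SE) for Phf10, with a 95% interval from -0.75 to 1.09 (adjusted p = 0.934, edgeR). For Dpf2 it was -0.17 ± 0.436 (SE, 95% interval -1.20 to 0.86, adjusted p = 0.938, edgeR). The direction for Dpf2 rested on which control was used. It was 0.63 without control replicate 1 and -0.70 without control replicate 2. In the latter fit Dpf2 passed (adjusted p = 0.0224, range over its alternatives 0.0224 to 1.0), where 16.9% of 19907 genes passed as well. Phf10 (ENSMUSG00000023883, chromosome 17, 14945009 to 14961273) shares 470 exonic bases, 9.56% of its exons, with 1600012H06Rik on the opposite strand, with the same uncertainty. Dpf2 (ENSMUSG00000024826) lies on chromosome 19 from 5896516 to 5913010.

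Dpf1, a neuronal PHD-finger form, differed more between the controls than between the groups. It had 323 and 17 reads in the controls, or 20.98 and 0.902 CPM, a gap of 23.3-fold. The Brg1cKO-labelled libraries stood between them at 8.09 and 10.5 CPM. Counting error alone does not cover that gap: the exact binomial 95% intervals, per 1000000 gene reads, were 18.8 to 23.5 and 0.518 to 1.42. Its log2 fold change was -0.23 ± 1.40 (SE, 95% interval -3.54 to 3.08, adjusted p = 0.976, edgeR). Without control replicate 1 it was 3.37 (adjusted p = 0.0584, range over its alternatives 0.0584 to 1.0) and without control replicate 2 it was -1.19.

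Dpf3, the other neuronal form, also known from heart and muscle development, measured 20.1 and 12.4 CPM in control, 8.30 and 9.68 CPM in Brg1cKO-labelled libraries. The groups did not overlap. Its log2 fold change of -0.86 ± 0.842 (SE) came with 95% limits of -2.83 and 1.12 and did not pass (adjusted p = 0.796, edgeR). In the same libraries the summed level of 16 heart and striated muscle genes was 131 to 177 CPM in control and 1110 to 1123 CPM in Brg1cKO-labelled libraries; its part in the level of Dpf3 was not tested. Of these genes 15 were tested and 15 had positive log2 fold changes; by edgeR 0 passed and 14 had an unadjusted p under 0.05, while 12 passed with DESeq2 and 1 with voom. Among the 16, 2 and 5 had no reads in control replicates 1 and 2, and 0 and 1 in Brg1cKO replicates 1 and 2. A gene that passes the filter only through the Brg1cKO-labelled libraries can only be positive. These heart gene counts are therefore not a free test of direction, and the list was chosen with earlier results of these data known. Dpf1 (ENSMUSG00000030584) lies on chromosome 7 from 29303951 to 29318243 and Dpf3 (ENSMUSG00000021221) on chromosome 12 from 83213745 to 83487716.

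Ss18, best known for its fusion in synovial sarcoma, had the narrowest interval after Smarca4. It measured 142 and 139 CPM in control, 131 and 157 CPM in Brg1cKO-labelled libraries, a range that enclosed the controls. Its log2 fold change was 0.03 ± 0.218 (SE, 95% interval -0.48 to 0.54, adjusted p = 0.981, edgeR). Ss18l1, the gene for the neuronal counterpart CREST, a calcium-responsive transactivator, measured 18.0 and 18.5 CPM in control, 25.8 and 10.03 CPM in Brg1cKO-labelled libraries. Here the wide gap, of 2.57-fold, was between the Brg1cKO-labelled libraries. Its log2 fold change was -0.03 ± 0.732 (SE, 95% interval -1.75 to 1.70, adjusted p = 0.998, edgeR). It was -0.85 without Brg1cKO replicate 1 and 0.51 without Brg1cKO replicate 2. Ss18 (ENSMUSG00000037013) lies on chromosome 18 from 14624198 to 14682914 and Ss18l1 (ENSMUSG00000039086) on chromosome 2 from 180042509 to 180070201.

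In all, 0 of the 10 genes passed at an adjusted p under 0.05 by edgeR, and 0 had an unadjusted p under 0.05. Over all tested genes, 0.0302% passed at the adjusted threshold and 12.5% at the unadjusted one. With DESeq2 and with limma voom the count was 0 as well. With DESeq2 4.16% of the 25174 genes with at least 1 count passed, and with voom 0.326% of the 16557 filtered genes, so the bases differ. The median log2 fold change was -0.04 over the 10 genes and 0.03 over all genes tested. The groups did not overlap for 4 of the 10, namely Smarca4 and Actl6b with higher values in the Brg1cKO-labelled libraries and Smarca2 and Dpf3 with lower ones. That was the case for 44.1% of all tested genes (26.3% higher, 17.8% lower), so 4 of 10 is near the background. For 7 of the 10 the gap between replicates was larger in the controls, and for 8 of the 10 the fold change was smaller than the larger of the gaps between replicates. Across all tested genes the controls also lay further apart (SD of the log2 replicate ratio 2.30 against 1.27). The shares of all genes behind these counts were not computed, so the counts are not read as traits of the 10. These tests do not show that the genes did not differ: the intervals of Dpf1, Dpf3, Ss18l1 and Actl6b each include a 2-fold change in both directions.

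**Figure D3:**
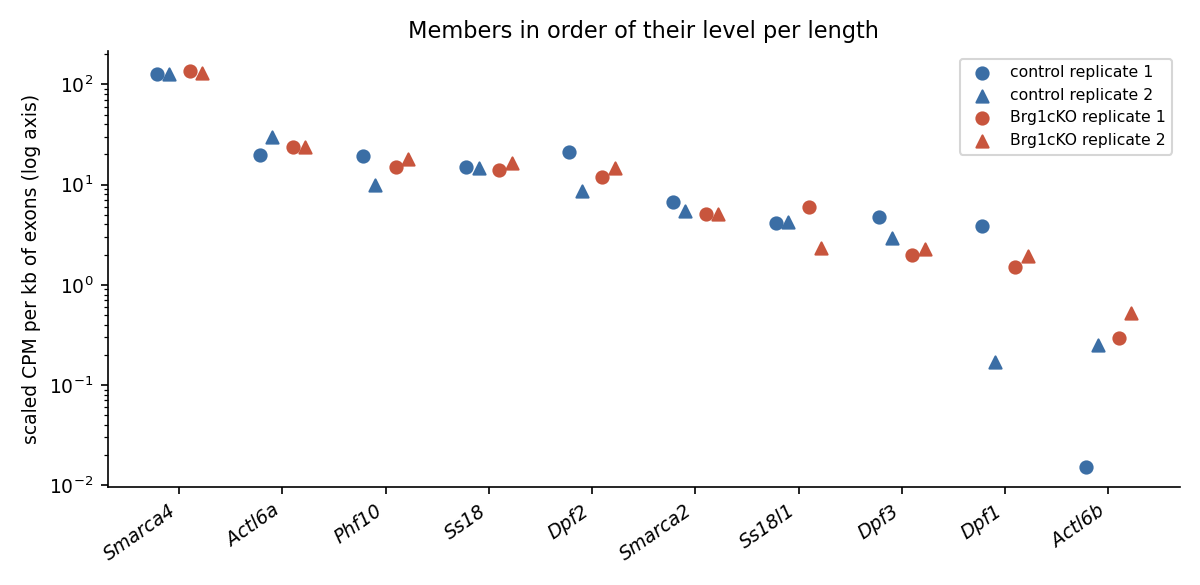
Scaled CPM per kb of exons for each gene on a log axis, 1 point per library, in order of the mean over the 4 libraries. Smarca4 (126 to 138) stands clear of the rest in every library, and the neuronal forms fill the lower end, down to Actl6b (0.0152 to 0.524).

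Levels of different genes were compared per length, as scaled CPM per kb of all annotated exons. Smarca4 led at a mean of 130 (126 to 138 over the 4 libraries), above 98.7% of tested genes. Actl6a followed at 24.3 (19.6 to 29.8), below Smarca4 in every library. Its range overlapped that of Dpf2, which was the higher of them in control replicate 1 (21.3 against 19.6). Phf10 (15.4), Ss18 (15.1) and Dpf2 (14.1) came next, with ranges that overlapped each other. Smarca2 stood at 5.60, below all values of these progenitor forms, and its range overlapped that of Ss18l1 (4.16). Then came Dpf3 (2.99) and Dpf1 (1.88), whose ranges overlapped those of their neighbours. Actl6b stood last at 0.271, above 4.23% of tested genes. The 4 progenitor forms thus ranked above the 4 neuronal forms without overlap between the sets. With the longest transcript as the length, Phf10 moved behind Ss18 and Dpf2, and the remaining order was as before.

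The balance within each slot was read inside each library, where it does not depend on how libraries are scaled. Smarca2 made up 5.08% and 4.17% of the ATPase transcripts per kb in the controls and 3.55% and 3.77% in the Brg1cKO-labelled libraries. This share rests on the length given to Smarca2, whose 46 annotated transcripts together span 14269 exonic bases while the longest has 5921. With the latter it was 11.3% and 9.36% against 8.03% and 8.496%. By either length, Smarca4 held the larger share of the slot in every library.

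Actl6b made up 0.0776% and 0.827% of the actin-related slot in the controls and 1.22% and 2.14% in the Brg1cKO-labelled libraries. Dpf1 and Dpf3 together made up 17.6% and 14.4% of the PHD-finger slot in control and 11.5% and 11.6% in Brg1cKO-labelled libraries. Ss18l1 made up 21.5% and 22.3% of its slot in control and 29.9% and 12.2% in Brg1cKO-labelled libraries. The groups did not overlap in the first 3 slots, with the share of the alternative form lower in the Brg1cKO-labelled libraries for the ATPases and PHD-finger genes and higher for the actin-related genes. Single genes did not overlap in 44.1% of all those tested, and no such share was computed for slots. The slots are built from the same 10 genes, so this is not a further result. In the SS18 slot the Brg1cKO-labelled libraries lay on either side of the controls.

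**Figure D4:**
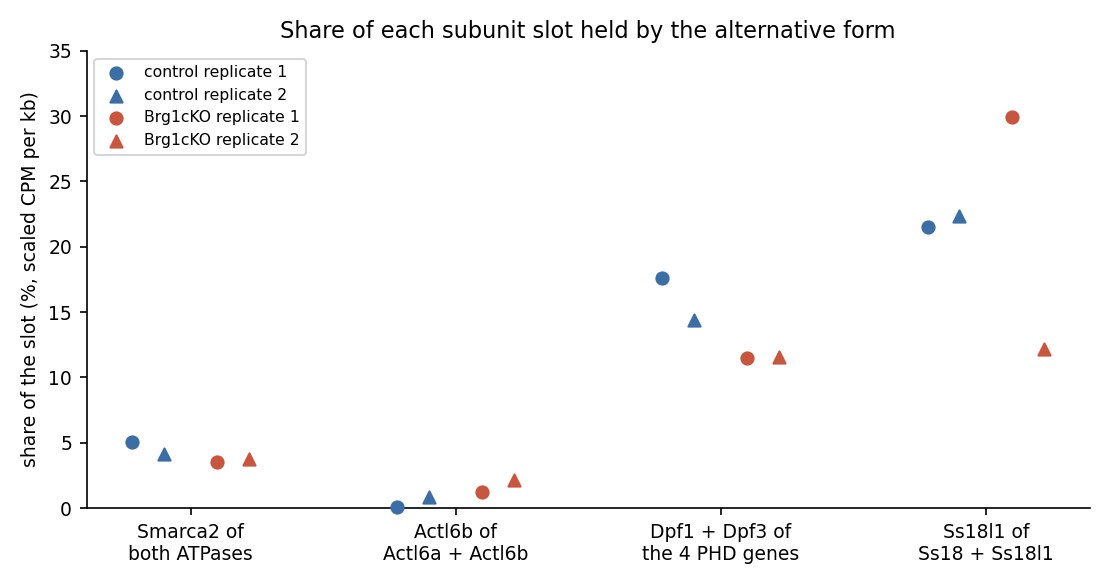
Share of each subunit slot held by the alternative form, in percent of scaled CPM per kb, 1 point per library (blue, control; red, Brg1cKO). The progenitor form or Smarca4 holds the larger share of every slot, and the widest spread is that of Ss18l1 (12.2% to 29.9%).

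As log2 ratios with 0.1 added to each side, the difference of Brg1cKO minus control was -0.34 for Smarca2 over Smarca4 (group SDs 0.208 and 0.0624, n = 2 each). It was 1.33 for Actl6b over Actl6a (SDs 0.702 and 0.462), -0.54 for the PHD-finger slot (SDs 0.229 and 0.00195) and -0.20 for Ss18l1 over Ss18 (SDs 0.046 and 1.12). With 2 libraries per group the exact two-sided permutation test cannot give a p below 0.333. It gave 0.333 for the first 3 slots and 1 for the SS18 slot. A test with that limit cannot call a difference of any size, so these values are a description, and no other test of them was run. The direction in the SS18 slot rested on 1 library: the difference was -0.99 without Brg1cKO replicate 1 and 0.59 without Brg1cKO replicate 2. The value for Actl6b over Actl6a depended on the amount added, at 2.34 with 0.01 and 0.33 with 1.

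Of 20 other subunits of the BAF family, all tested, 0 were called by edgeR, where 0.0302% of all tested genes were. An unadjusted p under 0.05 was found for 1, against 12.5% of all genes, and 0 passed with DESeq2 and 0 with voom. Log2 fold changes were negative for 15 and positive for 5 with a median of -0.15, beside 8027 negative of 16557 over all genes. Arid1a, the DNA-binding subunit of the canonical complex and the best-read of the 20, measured 685 and 633 CPM in control, 687 and 709 CPM in Brg1cKO-labelled libraries. Bcl11b, a zinc-finger subunit of neural and T-cell complexes, had the smallest p. It measured 92.5 and 39.7 CPM in control, 20.5 and 24.5 CPM in Brg1cKO-labelled libraries (log2 fold change -1.55, adjusted p = 0.368, edgeR).

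Among 9 genes tied to the exchange itself, 8 were tested and 0 passed by edgeR (1 with DESeq2 and 0 with voom). By edgeR an unadjusted p under 0.05 was found for 2, Ptbp2 and C130071C03Rik, against 12.5% of all tested genes. C130071C03Rik passed the filter on low counts only through the Brg1cKO-labelled libraries, so its p is no support. Ptbp2, a splicing regulator of young neurons, measured 173 and 189 CPM in control, 109 and 105 CPM in Brg1cKO-labelled libraries (log2 fold change -0.76, adjusted p = 0.329, edgeR). Ptbp1, its counterpart in progenitors, stood at 644 and 708 against 639 and 674 CPM. Rest, the repressor of neuronal genes in other cells, is named after its values were seen, as are the RNAs that follow; it stood at 173 and 174 against 199 and 195 CPM (adjusted p = 0.793, edgeR).

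The long host RNAs of miR-9 and miR-124 were few in reads, and their counts do not measure the mature miRNAs. C130071C03Rik, a host of miR-9, had 0 reads in both controls and 17 and 30 in the Brg1cKO-labelled libraries. For the reason given above, its fold and p are not read as a result. Mir9-3hg, another host, had 0 reads in both controls and 42 and 7 in the others and was too low to test. Mir124-2hg had 0 and 20 reads against 224 and 67 (adjusted p = 0.718, edgeR), and Mir124a-1hg had 91 and 129 against 114 and 76 (adjusted p = 0.895).

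**Figure D5:**
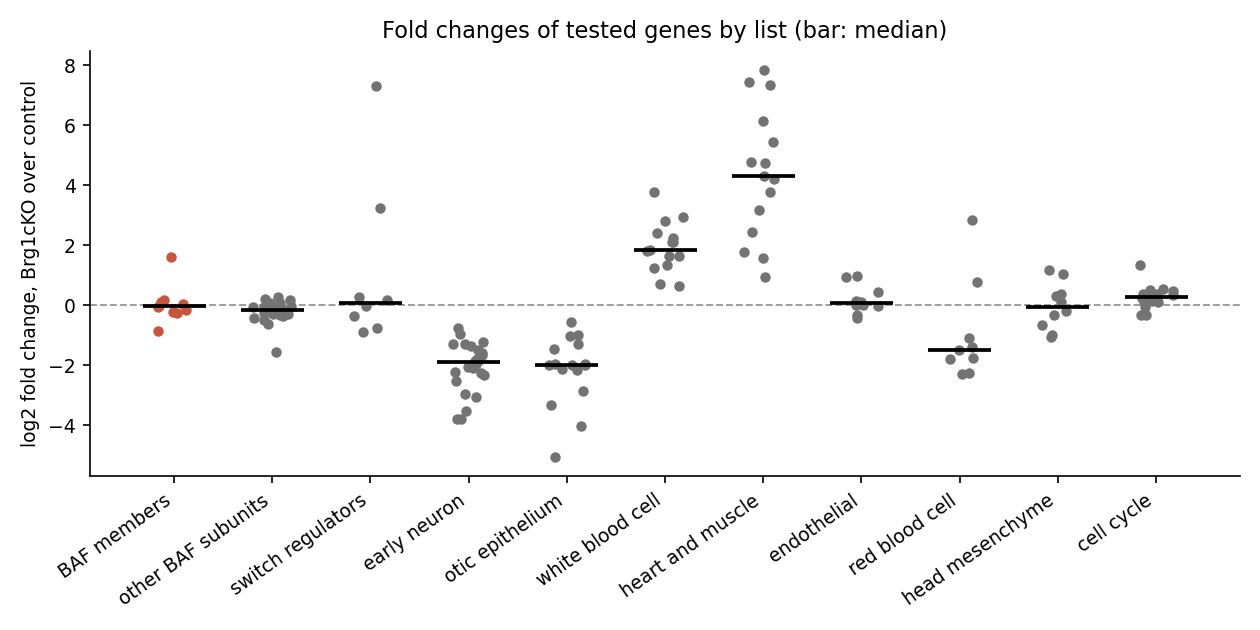
Log2 fold change of Brg1cKO over control for each tested gene (points, with horizontal scatter for legibility) by gene list, with the list's median as a bar. The 10 BAF genes (red) centre at -0.04, near all genes tested (0.03), while early neuron genes centre at -1.91 and heart and muscle genes at 4.31. Genes that passed the filter on low counts only through the Brg1cKO-labelled libraries, such as C130071C03Rik, are included and can only be positive.

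Among the lists of cell-type markers, those of neurons, otic epithelium, heart and muscle, white blood cells and red blood cells had medians over 1 from 0 on the log2 scale, and those of endothelium and head mesenchyme did not. All lists were chosen with earlier results of these data known, so their counts of 1 direction are a description and not a test. Of 24 early neuron genes all 24 had log2 fold changes below 0 (median -1.91), and 1 passed by edgeR (17 with DESeq2, 1 with voom). That was Nefm, a neurofilament subunit whose span takes in Nefl on the opposite strand, at 592 and 717 CPM in control and 199 and 211 CPM in Brg1cKO-labelled libraries (adjusted p = 0.0371, edgeR). Their summed level was 1930 to 2016 CPM in control and 604 to 643 CPM in Brg1cKO-labelled libraries. The neuronal BAF forms stood beside this at log2 fold changes of 1.62 (Actl6b), -0.23 (Dpf1), -0.86 (Dpf3) and -0.03 (Ss18l1), none of them past the threshold; the difference from the neuron list was not tested. Of 16 otic genes all 16 were negative, with a median of -1.99, and 1 passed by edgeR (10 with DESeq2, 3 with voom). That was Oc90, the main otoconial matrix protein.

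Genes of white blood cells were all positive (15 of 15, median 1.85), with a summed level of 452 to 508 CPM in control and 1844 to 1917 CPM in Brg1cKO-labelled libraries, and 1 passed by edgeR (11 with DESeq2, 4 with voom), namely Mrc1, the mannose receptor of macrophages. The median was 0.06 for 10 endothelial genes, -0.05 for 10 head mesenchyme genes, -1.49 for 9 tested red blood cell genes and 0.29 for 16 cell cycle genes, 13 of them positive. By edgeR 0 genes of these lists passed, with 4, 3, 4 and 2 at an unadjusted p under 0.05 in the same order. With DESeq2 the counts were 1, 3, 3 and 0, and with voom 0, 2, 1 and 0. Of the cell cycle genes, Ccne1 (cyclin E1) had the smallest p and measured 27.3 and 21.9 CPM in control, 49.1 and 76.4 CPM in Brg1cKO-labelled libraries (log2 fold change 1.35, adjusted p = 0.368, edgeR). Mki67, a marker of dividing cells and the best-read of that list, measured 908 and 913 CPM in control, 962 and 799 CPM in Brg1cKO-labelled libraries.

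The remaining lists are represented in the same way, by the gene of smallest p and the best-read gene, and none of these passed by edgeR. Of the heart genes, the myosin heavy chains Myh6 and Myh7 had log2 fold changes of 3.18 (adjusted p = 0.11) and 1.78 (adjusted p = 0.228). Of the endothelial genes, the angiopoietin receptor gene Tek stood at 0.97 (adjusted p = 0.198) and the cadherin gene Cdh5 at 0.15 (adjusted p = 0.693). Hbb-y, an embryonic globin gene that was both in the red blood cell list, stood at -1.76 (adjusted p = 0.113). Of the head mesenchyme genes, the collagen genes Col1a1 and Col3a1 stood at -1.01 (adjusted p = 0.0543) and 0.1 (adjusted p = 0.789). The part of these differences in cell make-up in the levels of the 10 genes was not tested.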

How the data were processed

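RNA-seq libraries of sorted otic cells (2 control, 2 Brg1cKO) were compared. The authors deposited raw read counts per Ensembl gene, as whole numbers, 1 table per library; HISAT2, HTSeq, DESeq2 and mm10 are named, with no role or version, in the submitters' processing notes. Reads were strand-specific, random-primed and 75 bases long, per the labels' protocols; the strand setting of the counting is not given in the sources used here. The 5 closing lines that name no gene held 51.8% and 50.7% of control records and 36.01% and 36.3% of Brg1cKO records; they were left out. Symbols, positions and lengths came from GENCODE M21, which matched 52489 of 52636 identifiers.

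Counts were filtered by filterByExpr (minimum count 10), scaled by TMM and tested with edgeR 4.0.16 in R 4.3.3 (quasi-likelihood F-test, robust, group as the term, all 4 libraries, Benjamini-Hochberg adjustment over all tested genes, threshold 0.05). The fit was tested on simulated counts with the same dispersion in both groups. That setting does not cover the wider spread of the controls seen here. Alternatives used DESeq2 1.42.0 and limma 3.58.1 among 14 settings. The members and lists were chosen with earlier results of these data known. Named from each other list were the gene of smallest p, the gene of highest CPM and those that passed, at most 3.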

Additional observations from a re-analysis of the deposited data

How the results depend on the processing

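None of the 10 genes passed under 13 of the 14 alternatives; without control replicate 2 the count was 1 (Dpf2, -0.70), and leaving out each library in turn gave 0 to 1. The count over all genes went from 5 to 417 with every gene of at least 1 count, 10 with a minimum count of 50 (where Actl6b was not tested), 1048 with DESeq2, 54 with voom, 70 with the newer edgeR moderation and 33 to 3519 with each library left out in turn. A lone library is taken to vary like the other group. With the replicate number as a block 140 genes and 0 of the 10 passed; the numbers share no deviation (correlation over genes -0.00528), so they are not shown to pair the libraries. Of 139 recomputed fold changes of the 10 genes, 125 had the reported sign and 14 the other.

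The other sign was seen for Dpf1 with voom (1.26), with the block on replicate number (1.05) and with a library left out (range -1.19 to 3.37), for Dpf2 with voom (0.0174) and a library left out (-0.70 to 0.63), and for Ss18 with RLE scaling (-0.0064), DESeq2 (-0.0084) and a library left out (-0.10 to 0.16). It was seen for Ss18l1 with upper quartile scaling (0.0143), the newer moderation (0.0054) and a library left out (-0.85 to 0.51), for Actl6a with a library left out (-0.31 to 0.27) and for Phf10 likewise (-0.25 to 0.74). The causes were not tested. Of 36 recomputed slot differences 2 moved by over 1 SD, both for Actl6b over Actl6a, at 2.34 with 0.01 added and 0.33 with 1 added. With a library left out the differences ran from -0.99 to 0.59 for Ss18l1 over Ss18, whose sign turned without Brg1cKO replicate 2, from 0.83 to 1.82 for Actl6b over Actl6a, from -0.49 to -0.20 for Smarca2 over Smarca4 and from -0.70 to -0.37 for the PHD-finger slot. Actl6b had the lowest mean CPM of these genes in both groups, with 1 read in control replicate 1.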
